A study of Mus musculus with 6 samples.

Results

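The transcripts described here are those of 9 scavenger receptors of macrophages: Marco, Msr1, Cd163, Stab1, Olr1, Scarb1, Mrc1, Cd68 and Lrp1. They were taken by gene name from a table of read counts for 54532 genes, and all 9 were found there. The RNA came from sorted liver Kupffer cells, which are tissue-resident macrophages, of male mice on a high fat diet. There were 3 libraries from Trem2-deficient mice (Trem2 KO, Trem2–/–, group name Trem2_KO) and 3 from littermate controls (WT). Both groups were 8 weeks old when the diet began and stayed on it for 8 weeks, so the diet is common to both. The labels name no Cre line or cell type to which the deficiency was restricted, and the sources used here do not give the part of Trem2 that was removed. Nor do they say whether the libraries came from separate mice, so the p-values reflect the spread between libraries only, and that spread may be technical.

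Scavenger receptors are surface and endosomal proteins of several unrelated structures that bind modified lipoproteins, spent plasma proteins, microbes and cell debris and carry them to lysosomes. Kupffer cells line the liver sinusoids and clear such material from portal blood, and sinusoidal endothelial cells share this task and some of the receptors. TREM2 is itself a lipid-sensing receptor of macrophages. Its targeted gene was read at 84.3 to 90.1 CPM (reads per 1000000 reads of the library) in WT and at 14.5 to 17.4 CPM in Trem2_KO, so all 6 libraries fit their labels. CPM values here follow TMM scaling, which corrects for the composition of each library.

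Total counts ran from 15799351 to 17135603 per library. Across genes, which are no independent replicates, Pearson r of log2 CPM was 0.9898 to 0.9919 within groups and 0.9792 to 0.9814 between them. Kupffer cell markers were abundant, with Clec4f at 12330, Vsig4 at 2531 and Timd4 at 716 CPM on average in WT. Of 13776 genes with enough reads for the test, 30.4% were called at an edgeR adjusted p under 0.05, 15.3% higher and 15.1% lower in Trem2_KO. Of the called genes 50.3% were higher, and with total counts in place of TMM 61.3% were higher.

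Among the receptors, Marco fell by 53.6%, Stab1 rose by 47.8%, and the others moved by little or did not pass the test. Lrp1 rose by 11.1%, Cd68 fell by 8.48% and Cd163 fell by 6.81%. With the trend of change with gene length removed, Lrp1 (-0.0068 on the log2 scale, edgeR adjusted p = 0.897) and Cd68 (-0.020, adjusted p = 0.651) lost their calls and Scarb1 was called lower. Msr1, Mrc1 and Scarb1 were not called, and Olr1 had too few reads to be tested. Thus 2 receptors were called higher and 3 lower of the 8 tested, against 30.4% of all tested genes called. The groups did not overlap for 7 of the 8, against 41.6% of all tested genes. The median log2 change of the 8 was -0.0080, beside -0.0051 over all tested genes, and their median absolute log2 change was 0.115, beside 0.157. Each tested receptor had between 4242 and 102312 reads in a library, and standard errors of their log2 changes were 0.0226 to 0.0304. A wider spread fixed for every gene, a coefficient of variation of 0.1 or 0.2, left 10.8% or 2.69% of all tested genes called. Marco was called lower at both values, Stab1 was called higher at 0.1 only, and the calls of Lrp1, Cd68 and Cd163 were lost at both.

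**Figure D1:**
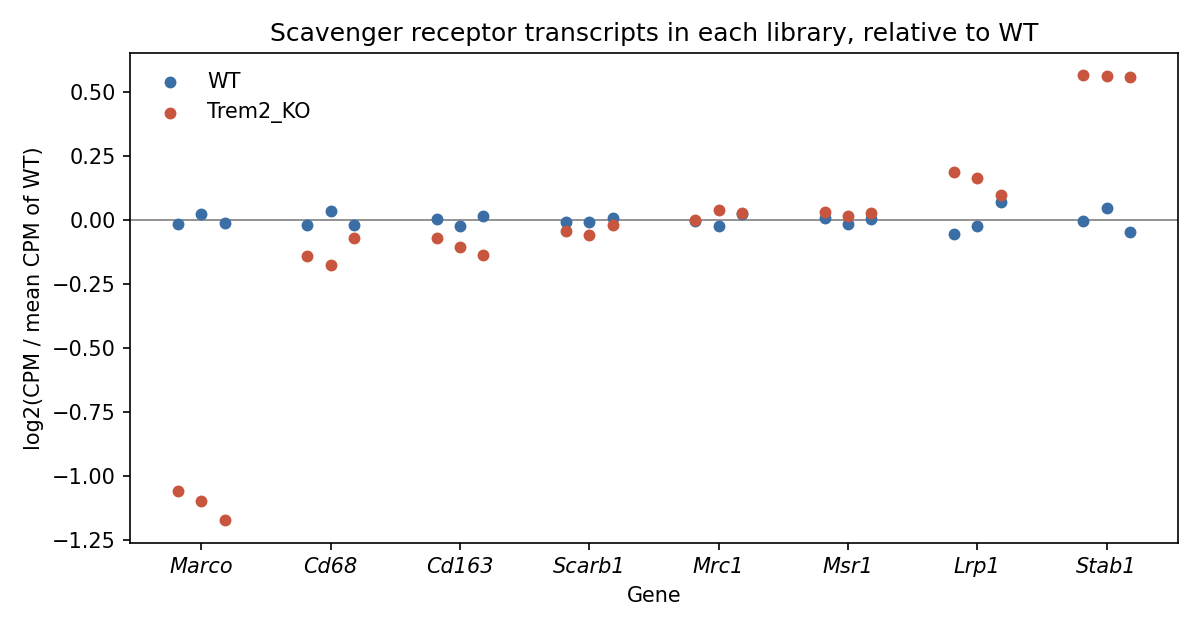
Points are single libraries of WT (blue) and Trem2_KO (red), and the vertical axis is log2 of CPM over the mean CPM of WT for each of the 8 tested receptors. The 3 Trem2_KO points of Marco lie far below WT and those of Stab1 above it, while the other receptors lie close to 0.

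Levels of different genes were compared per length, as deposited FPKM (fragments per kilobase of gene length, scaled for depth). In WT the order was Cd68 at 743 ± 16.5, Marco at 690.2 ± 11.1 and Cd163 at 652 ± 8.33 FPKM (SD, n = 3). Mrc1 at 310 ± 4.96 and Lrp1 at 292 ± 13.3 FPKM followed. Msr1 stood at 101 ± 0.885, Scarb1 at 67.5 ± 0.373, Stab1 at 27.1 ± 0.884 and Olr1 at 0.101 ± 0.037 FPKM. Only Mrc1 and Lrp1 overlapped between neighbours of this order. The lysosomal glycoprotein Cd68, Marco and the haemoglobin receptor Cd163 were thus the most abundant per length, ranked 45, 49 and 55 among protein-coding genes in WT.

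In Trem2_KO, Cd68 at 679 ± 25.8 and Cd163 at 607 ± 12.99 FPKM led the order (SD, n = 3). Lrp1 at 324 ± 10.01, Marco at 320 ± 12.6 and Mrc1 at 314 ± 4.403 FPKM overlapped one another. Marco thus went from the second place in WT to a group of 3 receptors that could not be put in order. Below them the order was that of WT, with Msr1 at 102 ± 0.528, Scarb1 at 65.7 ± 0.924, Stab1 at 40.0 ± 0.118 and Olr1 at 0.213 ± 0.0793 FPKM. By number of reads the order differs, since Lrp1 is the longest gene of the set at 17717 bp. It took 0.513% of all reads in WT and 0.582% in Trem2_KO, more than any other receptor here, and the 9 together took 1.41% to 1.47% of each library.

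**Figure D2:**
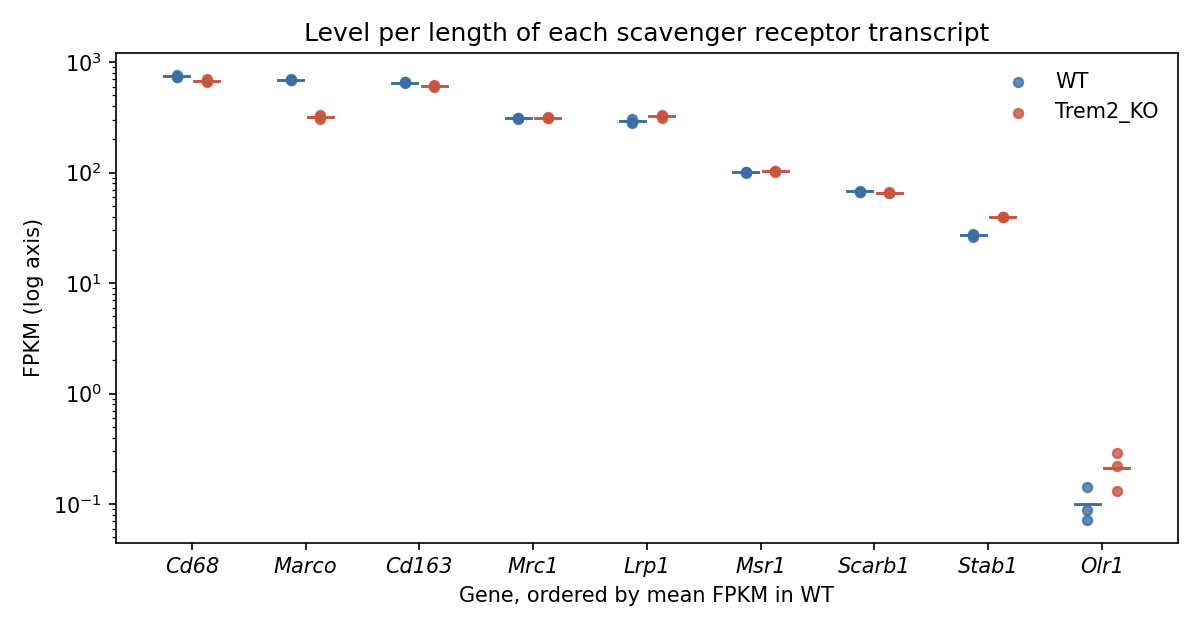
Deposited FPKM on a log axis for each receptor, ordered by the WT mean; points are libraries of WT (blue) and Trem2_KO (red) and short lines are group means. Receptors span from about 0.1 FPKM for Olr1 to above 700 FPKM for Cd68 in WT, and Marco drops from 690.2 to 320 FPKM.

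The class A receptors Marco and Msr1 are trimeric collagen-like membrane proteins that take up modified low density lipoprotein and bacteria. Marco (ENSMUSG00000026390, chromosome 1, 120474538 to 120505024, GRCm38, minus strand) had 1321, 1360 and 1325 CPM in the WT libraries and 641, 624 and 592 CPM in the Trem2_KO libraries. All Trem2_KO libraries lay far below all WT libraries. The group means were 1335 ± 21.4 and 619 ± 24.7 CPM (SD, n = 3). The log2 change was -1.11 (SE 0.0271, edgeR adjusted p = 4.88e-37). Ordered from the most negative log2 change, Marco ranked 76 among 13776 tested genes. Msr1 (ENSMUSG00000025044, chromosome 8, 39581685 to 39642673, minus strand) had 646, 636 and 645 CPM in the WT libraries and 658, 650.3 and 655 CPM in the Trem2_KO libraries. The highest WT and lowest Trem2_KO libraries were close, and Msr1 was not called, at a log2 change of 0.03 with a 95% interval of -0.027 to 0.079 (edgeR adjusted p = 0.495).

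Within a library, where no scaling between libraries enters, there were 204, 214 and 205 Marco reads per 100 Msr1 reads in WT. In Trem2_KO there were 97.5, 96.0 and 90.5. Marco thus had more reads than Msr1 in each WT library and fewer in each Trem2_KO library. The log2 ratio differed by -1.14 (exact permutation test, two-sided p = 0.1, the smallest that 3 against 3 libraries can give, adjusted p = 0.136 over 15 ratios). Set against the Kupffer cell markers Vsig4 and Clec4f in place of Msr1, the log2 ratio of Marco differed by -1.02 and -0.97, with the same exact permutation p of 0.1.

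The log2 change of Marco was larger in size than that of each of 12 other Kupffer cell markers in these libraries. Of the 12, 9 were called lower and 0 higher, at a median log2 change of -0.18 and a range of -0.34 to -0.0045. The summed level of the 12 was 52680 to 54750 CPM in WT and 47740 to 48850 CPM in Trem2_KO, and none was at 0. Timd4, a phosphatidylserine receptor of resident Kupffer cells, changed by -0.34 and the lectin Fcna by -0.33 on the log2 scale. The complement component C1qa changed by -0.21, and Csf1r, the receptor of the macrophage growth factor, was not called at -0.0045. In bulk RNA, fewer cells of a type and less RNA per cell cannot be told apart.

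Because Marco and Stab1 moved most among the 8 tested receptors, in opposite directions, the 250 bases before each of their RefSeq start sites (GRCm38.p6) are shown, 5′ to 3′ on the strand of the gene. Capitals mark the core GAGGAA, or its reverse complement, of the motif of PU.1, the macrophage lineage factor encoded by Spi1. The Marco window is chr1:120505025-120505274 and the Stab1 window is chr14:31168642-31168891, both on the minus strand.
Marco: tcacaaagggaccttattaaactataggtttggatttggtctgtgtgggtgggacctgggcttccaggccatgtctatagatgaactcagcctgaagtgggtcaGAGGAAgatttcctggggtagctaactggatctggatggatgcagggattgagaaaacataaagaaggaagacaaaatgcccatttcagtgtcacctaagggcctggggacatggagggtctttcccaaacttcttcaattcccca
Stab1: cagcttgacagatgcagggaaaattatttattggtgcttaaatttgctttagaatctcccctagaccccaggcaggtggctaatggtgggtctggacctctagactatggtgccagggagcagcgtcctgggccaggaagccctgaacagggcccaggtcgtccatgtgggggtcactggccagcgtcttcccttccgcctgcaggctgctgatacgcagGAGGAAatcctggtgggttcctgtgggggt
Each window holds 1 match, starting 146 bases before the start site in Marco and 30 bases before it in Stab1. A RefSeq window was found for 7 of the 9 receptors. The GAGGAA core was in 5 of them, those of Marco, Mrc1, Olr1, Cd68 and Stab1, beside 23.3% of all 32851 windows of this length, both strands counted. The MAF half-site TGCTGA was in that of Stab1 only (16.1% of all windows), and the AP-1 motif TGANTCA in those of Olr1 and Cd68 (6.75%). The E-box CACGTG (6.02%) and the TATA box TATAAA (12.4%) were in none of the 7. The PU.1 core was therefore in front of both the tested receptor that fell most and the tested receptor that rose most, and a match is not evidence of binding.

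Stab1 encodes stabilin-1, a large receptor of macrophages and sinusoidal endothelium that clears the matrix protein SPARC and other modified proteins. Stab1 (ENSMUSG00000042286, chromosome 14, 31139013 to 31168641, minus strand) had 279, 289 and 271 CPM in the WT libraries and 415, 414 and 412 CPM in the Trem2_KO libraries. All Trem2_KO libraries lay above all WT libraries and close to each other. The means were 280 ± 8.98 and 414 ± 1.36 CPM (SD, n = 3). The log2 change was 0.56 (SE 0.0304, edgeR adjusted p = 7.31e-22). Stab1 shares 112 of its 10288 exonic bases with Nt5dc2 on the other strand, and Nt5dc2 had 1391 reads over the 6 libraries against 34146 for Stab1.

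Of 14 sinusoidal endothelial markers, 11 were called higher in Trem2_KO and 1 lower, with a median log2 change of 0.45, while their summed level was not higher. That sum was 2014 to 2032 CPM in WT and 1988 to 2002 CPM in Trem2_KO, and none was at 0. Cdh5, at -0.15 and called lower, Stab2 and Pecam1 made up most of it. The other 11 were split off at 100 CPM after their values were seen. They summed to 165 to 175 CPM in WT and 243 to 249 CPM in Trem2_KO, with means of 170 and 247 CPM. The means of Stab1 were 280 and 414 CPM. Of these 11, 10 were called higher and 0 lower, among them Ptprb at 0.67, Ehd3 at 0.61 and Flt4 at 0.75 on the log2 scale.

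The nearest relative of Stab1, Stab2, is known as a receptor of sinusoidal endothelium, and it moved less. In WT it stood at 46.2 FPKM, below Cdh5 at 298 and above Lyve1 at 3.82 FPKM. Which cells of the sort its reads came from was not tested. Stab2 averaged 406.5 CPM in WT and 429.5 CPM in Trem2_KO, a log2 change of 0.08 (SE 0.0283, edgeR adjusted p = 0.0273). There were 145, 142 and 149 Stab2 reads per 100 Stab1 reads in WT and 104, 104 and 103 in Trem2_KO, so this ratio was lower in every Trem2_KO library. The log2 ratio differed by -0.49 (exact permutation test, two-sided p = 0.1). Lyve1, another sinusoidal endothelial gene, kept to 4.16, 3.78 and 4.08 reads per 100 Stab1 reads in WT and 4.13, 4.53 and 3.78 in Trem2_KO, and these groups overlapped. The part of endothelial RNA in the rise of Stab1 was not tested.

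Lrp1 is a large endocytic receptor that takes up apolipoprotein E remnants, protease and inhibitor complexes and haem bound to haemopexin. Lrp1 (ENSMUSG00000040249, chromosome 10, 127538161 to 127621148, minus strand) had 4998, 5111 and 5461 CPM in the WT libraries and 5915, 5824 and 5566 CPM in the Trem2_KO libraries. The groups did not overlap, but WT replicate 3 and Trem2_KO replicate 3 were near each other. The means were 5190.0 ± 242 and 5768 ± 181 CPM (SD, n = 3). The log2 change was 0.15 (SE 0.0289, edgeR adjusted p = 0.000365). Fibroblast-like stellate cells also carry Lrp1, and of 11 tested stellate cell markers 2 were called higher and 0 lower, Ecm1 at 0.32 and Hgf at 0.35, with Colec11 at -0.59 and Pdgfrb at -0.46 not called. The median log2 change of the 11 was -0.39. The list summed to 212 to 220 CPM in WT and 258 to 262 CPM in Trem2_KO, of which Ecm1 and Hgf made up 87.9% in WT. Without these 2, a split made after their values were seen, the sum was 25.5 to 26.8 CPM in WT and 21.9 to 22.8 CPM in Trem2_KO. The part of stellate cells in the change of Lrp1 was not tested.

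Cd68, or macrosialin, is a heavily glycosylated protein of late endosomes and lysosomes that is used as a general macrophage marker. Cd68 (ENSMUSG00000018774, chromosome 11, 69664213 to 69666153, minus strand) had 926, 962 and 926 CPM in the WT libraries and 851, 830.1 and 894 CPM in the Trem2_KO libraries. The groups did not overlap. The log2 change was -0.13 (SE 0.0271, edgeR adjusted p = 0.000176), from 938 ± 20.7 to 858 ± 32.5 CPM (SD, n = 3).

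The changes of Lrp1 and Cd68 were close to the median change of genes of like length. In this comparison long genes tended to be higher and short genes lower in Trem2_KO, with a median log2 change of -0.07 in the tenth of tested genes with the shortest length and 0.12 in the tenth with the greatest. Around each receptor the 500 tested genes nearest in length were taken, a choice made after its values were seen. Their median log2 change was 0.15 around Lrp1 (17717 bp) and -0.11 around Cd68 (1257 bp), which left -0.0030 and -0.014 for the 2 receptors. For Marco (1925 bp) that median was -0.09 and left -1.02, and for Stab1 (10288 bp) it was 0.09 and left 0.47. In the fit with the length trend removed, in which Lrp1 and Cd68 were not called, Scarb1 was called lower, at -0.10 (edgeR adjusted p = 0.00331).

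**Figure D3:**
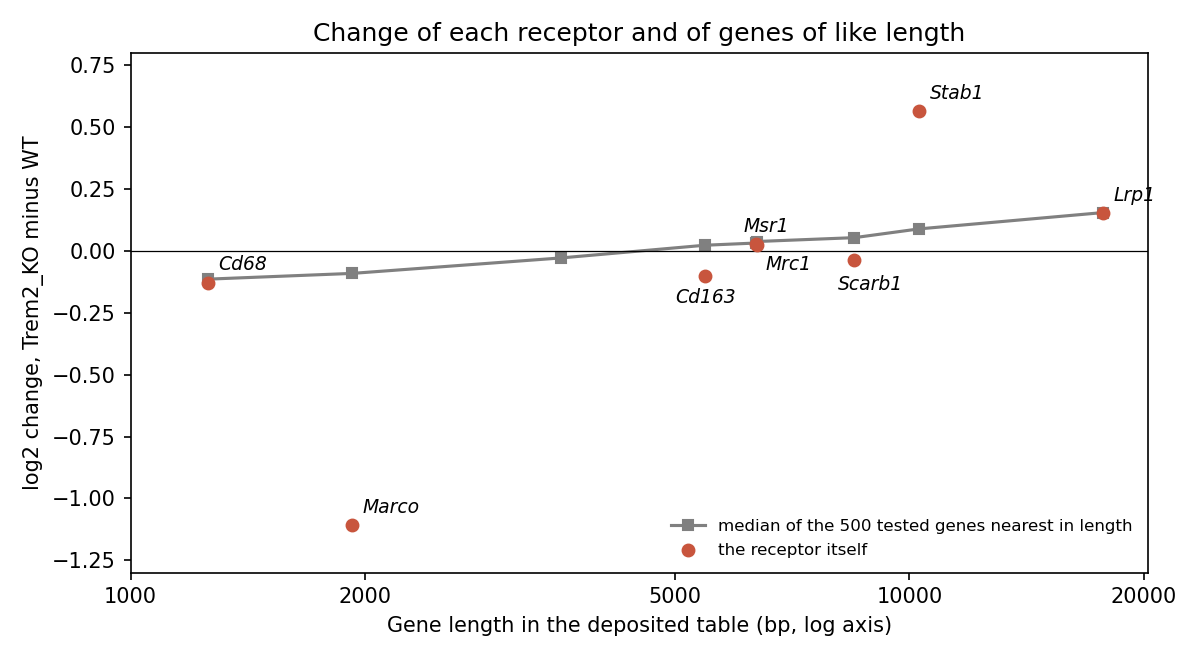
Log2 change (Trem2_KO minus WT) against gene length on a log axis; red points are the 8 tested receptors, and grey squares are the median change of the 500 tested genes nearest in length to each receptor, Olr1 included. Lrp1, Cd68, Msr1 and Mrc1 lie on or next to the grey line, and Marco and Stab1 lie 1.02 below and 0.47 above it.

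Cd163 is the receptor for haptoglobin bound to haemoglobin, and Mrc1 is the mannose receptor, which clears glycoproteins with exposed mannose. Cd163 (ENSMUSG00000008845, chromosome 6, 124304656 to 124330527, plus strand) had 3590.0, 3525 and 3615 CPM in the WT libraries and 3408, 3330.0 and 3261 CPM in the Trem2_KO libraries. Each Trem2_KO library was below each WT library, at a log2 change of -0.10 (SE 0.0226, edgeR adjusted p = 0.000332). Mrc1 (ENSMUSG00000026712, chromosome 2, 14229392 to 14332057, plus strand) had 1979, 1953 and 2018 CPM in the WT libraries and 1985, 2037 and 2022 CPM in the Trem2_KO libraries. These groups overlapped, and Mrc1 was not called at a log2 change of 0.02 with a 95% interval of -0.025 to 0.069 (edgeR adjusted p = 0.515). There were 181, 180.5 and 179 Cd163 reads per 100 Mrc1 reads in WT and 172, 163 and 161 in Trem2_KO, a difference of -0.12 in log2 ratio (exact permutation test, two-sided p = 0.1).

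Scarb1 encodes the high density lipoprotein receptor that takes up cholesteryl ester, and both macrophages and hepatocytes express it. Scarb1 (ENSMUSG00000037936, chromosome 5, 125277087 to 125341094, minus strand) had 575, 575 and 581 CPM in the WT libraries and 560, 555 and 570.3 CPM in the Trem2_KO libraries. The groups lay next to each other without overlap. Scarb1 was not called, at a log2 change of -0.04 with a 95% interval of -0.093 to 0.016 (edgeR adjusted p = 0.305). Of 16 hepatocyte markers, 8 were called lower and 4 higher, with Mup3 (uncertain, since the Mup genes are near-identical) at -1.35, Serpina3k at -0.72, Apoa1 at -0.71 and Ahsg at -0.68 on the log2 scale. Those called higher were Cyp3a11 at 0.67, Apob at 0.53, Pck1 at 0.42 and Ass1 at 0.36. Albumin (Alb), the most abundant of the 16, had 806 CPM in WT and 780 CPM in Trem2_KO and was not called at -0.05. The log2 ratio of Alb to Scarb1 reads differed by -0.0095 (exact permutation test, two-sided p = 0.7). The sum of the 16 was 1799 to 1863 CPM in WT and 1549 to 1588 CPM in Trem2_KO with none at 0, and the part of hepatocytes in the level of Scarb1 was not tested.

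Olr1 encodes LOX-1, a lectin-like receptor of oxidised low density lipoprotein best known from endothelium. Olr1 (ENSMUSG00000030162, chromosome 6, 129485244 to 129507165, minus strand) was read 4, 5 and 8 times in WT and 18, 13 and 8 times in Trem2_KO. Replicate 3 of both groups had the same number of reads, so the groups overlapped. The means differed by 0.405 CPM (exact permutation test, two-sided p = 0.2, where the smallest possible is 0.1), beside SDs of 0.133 in WT and 0.286 in Trem2_KO. Olr1 did not pass the filter on low counts. With no filter its log2 change was 1.05 (edgeR adjusted p = 0.198), and DESeq2 gave 1.08 (adjusted p = 0.303).

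Cd68 is often used to count macrophages, and the receptors were also set against it within each library. There were 143, 141 and 143 Marco reads per 100 Cd68 reads in WT and 75.4, 75.2 and 66.3 in Trem2_KO. Stab1 had 30.2, 30.1 and 29.3 in the WT libraries and 48.7, 49.9 and 46.1 in the Trem2_KO libraries. Both receptors separated the groups on this scale as well. Cd163 did not, with 382 ± 13.1 reads per 100 Cd68 reads in WT and 389 ± 20.8 in Trem2_KO (SD, n = 3, exact permutation p = 0.6). Msr1, Mrc1, Scarb1 and Lrp1 were higher per Cd68 read in each Trem2_KO library, by 0.16, 0.15, 0.09 and 0.28 on the log2 scale (exact permutation test, two-sided p = 0.1 each, adjusted p = 0.136 over 15 ratios). The small differences of Cd163, Msr1, Mrc1 and Scarb1 therefore depend on what they are set against, while Lrp1 was higher on both scales. Cd68 itself changed by -0.13, near the median of -0.11 of genes of like length. The ratios carry that change and were not corrected for length.

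**Figure D4:**
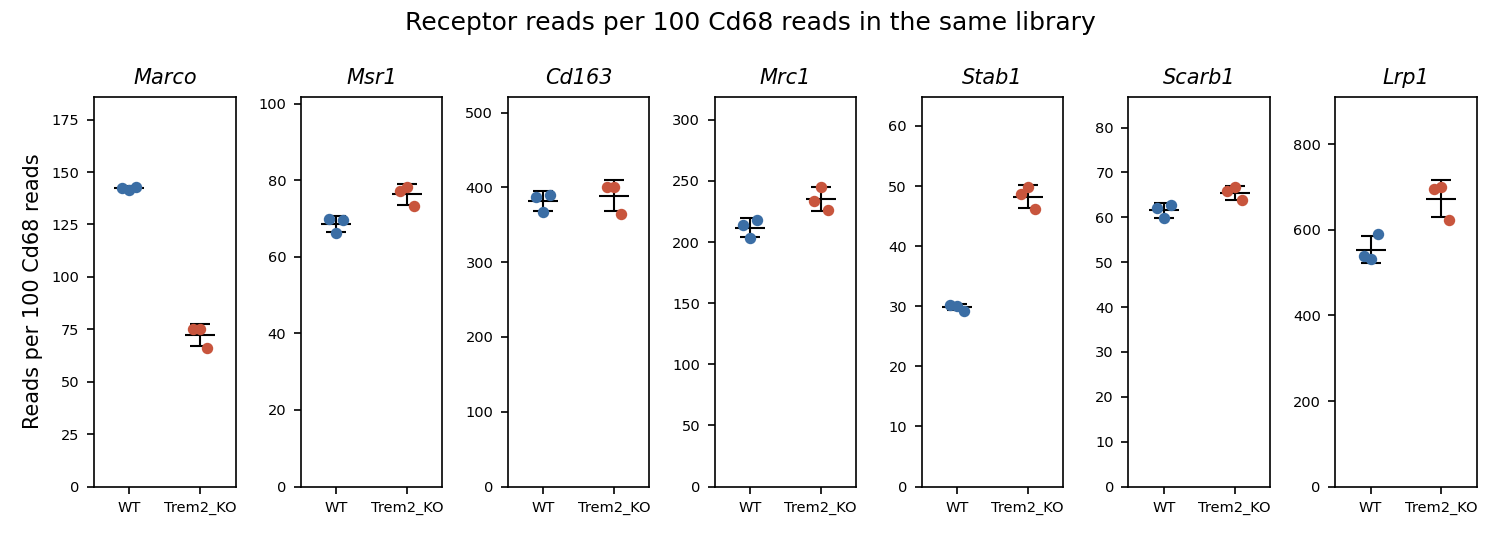
Reads of 7 receptors per 100 Cd68 reads of the same library, on linear axes from 0; points are libraries of WT (blue) and Trem2_KO (red), and black marks are the mean with SD (n = 3). Marco goes from 142 to 72.3 and Stab1 from 29.8 to 48.3 on average, and the points of Cd163 overlap between groups.

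Other scavenger receptors were taken as a list of 30 genes, of which 19 could be tested and 2, Megf10 and Vldlr, had no read. Of the 19, 7 were called higher and 3 lower, beside 15.3% and 15.1% of all tested genes, and their median log2 change was 0.05. The fatty acid and oxidised lipoprotein receptor Cd36 was read at 367 CPM in WT and 497 CPM in Trem2_KO, a log2 change of 0.44 (SE 0.0287, edgeR adjusted p = 1.9e-18). Colec12, a collagen-like class A relative of Msr1, changed by 0.68 (SE 0.0489, edgeR adjusted p = 8.34e-17), from 55.6 to 88.9 CPM. The glucan receptor Clec7a changed by 0.24 and the membrane-bound chemokine Cxcl16 by 0.15, both called. Cxcl16 shares 18.3% of its exonic bases with Zmynd15 on the other strand. Cd5l, a secreted protein with the cysteine-rich domain of Marco and Cd163, changed by -0.20 and was called. Of the class A and related cysteine-rich receptors named here, Marco, Cd163 and Cd5l were thus called lower, Colec12 was called higher and Msr1 was not called. Others of this kind in the list were not called or could not be tested.

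**Figure D5:**
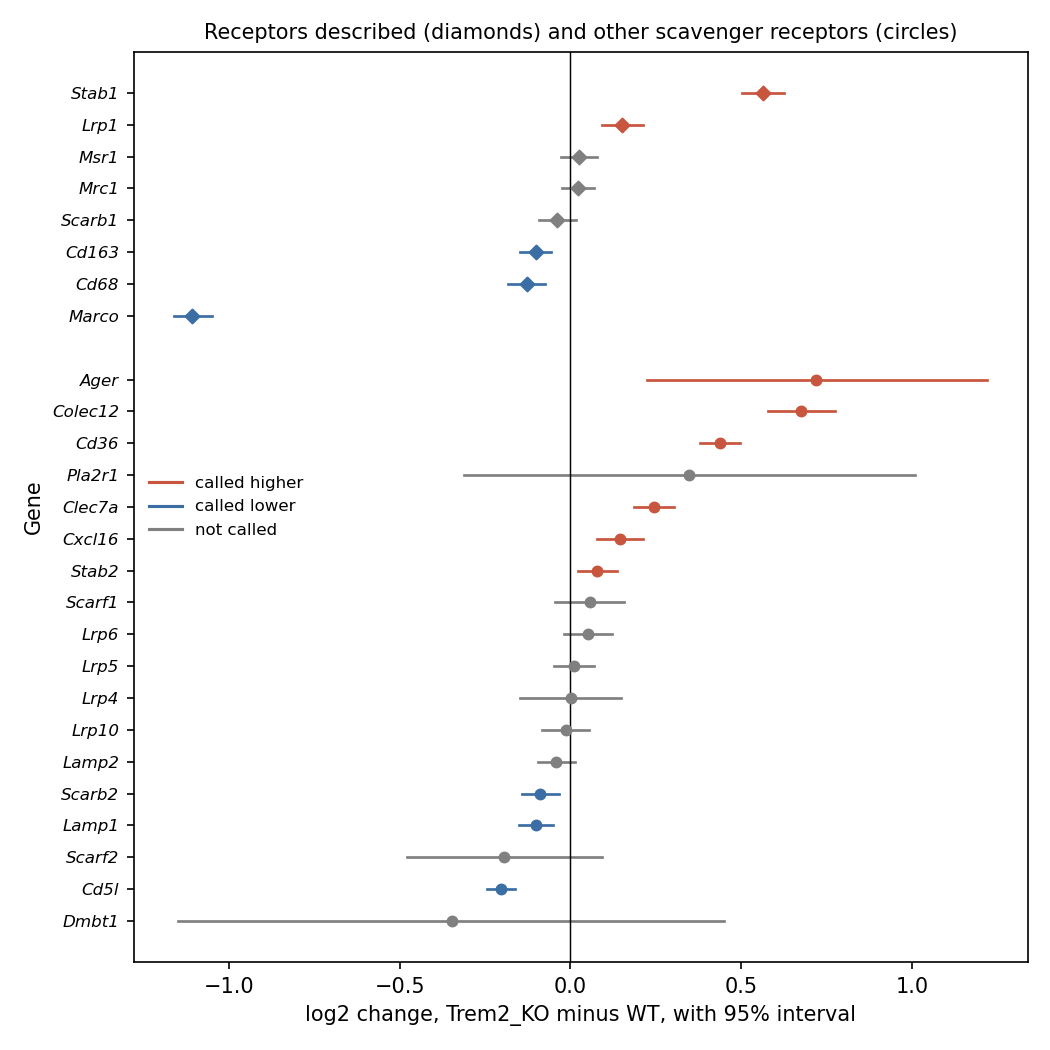
Log2 change (Trem2_KO minus WT) with its 95% interval for the 8 tested receptors (diamonds, above) and 18 of the 19 other tested scavenger receptors (circles, below), coloured by call. Marco lies at -1.11, below the estimates of the 18 others, of which Ager, on the chromosome of Trem2, is highest at 0.72 with a wide interval.

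Transcripts of receptor ligands, some of which the liver's other cells make, went both ways. Of 9 tested ligand genes 4 were called higher and 2 lower. Apoe, ligand of Lrp1 and among the most abundant transcripts, was read at 23500.0 and 24380.0 CPM and changed by 0.05 (edgeR adjusted p = 0.035). Hpx, the haem carrier that Lrp1 takes up, changed by 0.31, and Sparc, cleared by Stab1, by 0.51. Lpl changed by -0.13 and Apoa1, the ligand of Scarb1 and a hepatocyte product, by -0.71, and Hp, the haptoglobin of the Cd163 ligand, was not called at 0.01.

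Of 9 tested adaptors, chaperones and sheddases, 1 was called higher and 2 lower. The sorting nexin Snx17 changed by -0.23 and Mesd, a chaperone of the receptor family of Lrp1, by -0.24. Mesd shares 23.8% of its exonic bases with Gm49493 on the same strand, and Snx17 shares 11.9% with genes on the other strand. Lrpap1, the chaperone of Lrp1 itself, was not called at -0.10, nor were the ubiquitin ligase Mylip at 0.10 and the sheddase Adam17 at 0.07. Of 14 genes of clathrin-mediated uptake, 7 were called lower and 1 higher, beside 15.1% and 15.3% of all tested genes. Their median log2 change was -0.08. Their lengths ran from 1472 bp for Ap2s1 to 15732 bp for Picalm, and the part of gene length in these changes was not tested. The clathrin light chains Clta and Cltb changed by -0.23 and -0.32, the adaptor subunits Ap2s1 and Ap2m1 by -0.25 and -0.13, the endosomal GTPase Rab5c by -0.18, and Picalm by 0.21.

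Genes that handle the cargo after uptake were split by cargo. Of 7 genes of haem and iron handling, which lies downstream of Cd163, 6 were called lower and 0 higher. Over all tested genes 15.1% were called lower and 15.3% higher. The median log2 change of the 7 was -0.36. Their lengths ran from 866 bp for Fth1 to 9000 bp for Slc40a1, and here too the part of gene length was not tested. The haem oxygenase Hmox1 changed by -0.46, the iron exporter Slc40a1 by -0.38, the haem transporter Slc48a1 by -0.36, the biliverdin reductase Blvrb by -0.34, and the ferritin chains Fth1 and Ftl1 by -0.27 and -0.40. Ftl1 has near-identical copies, so its value is uncertain. Of 7 genes of lipid handling, 3 were called higher and 2 lower. The cholesterol exporters Abcg1 and Abca1 changed by 0.28 and 0.21 and the cholesterol esterifying enzyme Soat1 by 0.15. The lysosomal proteins Npc2 and Lipa changed by -0.13 and -0.10, and Npc1 was not called at 0.08.

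Of 16 transcription factors known to act on macrophage genes, 5 were called higher and 4 lower, with none beyond 0.44 in size. Klf4 changed by 0.44 and Maf by 0.21 on the log2 scale. Spi1, which encodes PU.1, changed by -0.15, Spic, a factor of iron-recycling macrophages, by -0.20, Id3, a Kupffer cell factor, by -0.17 and Nfe2l2, a factor of the oxidative stress response, by -0.15. Nr3c1, the glucocorticoid receptor, which induces Cd163, was not called at -0.02.

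By likeness of pattern over the 6 libraries, the genes nearest to Marco among 9824 genes of at least 5 CPM were Cndp2 (Pearson r = 0.9995), Trem2 (0.9994) and Tubb5 (0.9993). Nearest to Stab1 were Cd63 (r = 0.9993), Rcsd1 (0.9990) and Sla (0.9987). These values mostly reflect the split between the genotypes, since 88 and 98 genes exceeded 0.99 for Marco and Stab1. Their sizes differed widely: Cd63 changed by 3.62 and Rcsd1 by 0.37, against 0.56 for Stab1, and Cndp2 by -0.30 against -1.11 for Marco.

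Markers of further cell types were measured in the same libraries. Of 11 tested monocyte markers, which a recruited macrophage would also carry, 5 were called higher and 2 lower, with the chemokine receptors Ccr2 at 1.45 and Cx3cr1 at 1.46, Treml4 at -0.18 and Plac8 at -0.22. The list summed to 555.5 to 573 CPM in WT and 524 to 546 CPM in Trem2_KO, of which Treml4 and Plac8 made up 91.4% in WT. Without these 2, a split made after their values were seen, the sum was 46.6 to 51.1 CPM in WT and 76.3 to 77.3 CPM in Trem2_KO. Ly6c2, a defining gene of classical monocytes, was at 0.554 and 0.713 CPM. Of the tested markers, neutrophils had 1 of 4 called lower, B cells 3 of 5 lower and dendritic cells 1 of 5 higher. Of T and NK cells only Cd4 and Lck could be tested, and neither was called, at 0.11 and -0.21. The neutrophil list summed to 193 to 209 CPM in WT and 183 to 192 CPM in Trem2_KO, with Ly6g at 0. Most of it was Csf3r, the marker called lower, at 195.5 and 182.3 CPM on average. S100a9 and S100a8 averaged only 2.02 and 1.49 CPM in WT. The B cell list summed to 112 to 117 and 87.9 to 98.8 CPM, most of it Cd22 at 80.7 and 70.1 CPM. The T and NK cell list summed to 6.71 to 7.86 and 7.22 to 8.04 CPM, and the dendritic cell list to 42.6 to 46.9 and 48.9 to 53.1 CPM. Most of the dendritic cell list was Clec9a, the marker called higher, at 39.05 CPM in WT and 44.32 CPM in Trem2_KO on average. Clec9a shares 5.59% of its exonic bases on the same strand with Clec1b, a gene with more reads. The part of Clec1b in the Clec9a reads was not tested. The part of these further cell types in the receptor changes was not tested.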

How the data were processed

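RNA of 6 libraries of sorted Kupffer cells was prepared with an Illumina TruSeq kit, per the labels. The values deposited by the authors are whole-number read counts for each gene. Per the submitters' processing notes HISAT2 2.0.5, featureCounts 1.5.0-p3, DESeq2 1.16.1 and the builds GRCm38 and mm10 were used. No source used here gives the strand setting. The deposited FPKM equal count over gene length and over 1 constant per library, 0.989 to 1.02 times its total. Groups and replicate numbers came from the sample titles.

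The main test was edgeR 4.0.16 in R 4.3.3 (filterByExpr, TMM, robust quasi-likelihood, genotype as the only term, Benjamini-Hochberg over 13776 genes, call at 0.05), after a check on simulated data. Standard errors were derived from the quasi-F statistic, and intervals are 95%. Counting precision is limited by depth: 3 counts, the limit that a count of 0 allows, are 0.173 to 0.192 CPM, for counting error only. Ratios within a library were tested by exact permutation. Alternatives used DESeq2 1.42.0 and limma 3.58.1, other scalings and filters, a replicate block, a gene length correction, fixed dispersions and left-out libraries. Exon overlaps were read from GENCODE M21 (GRCm38), whose spans equal those of the table for all 9 receptors, and promoter windows from RefSeq (GRCm38.p6).

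The members and lists were chosen with earlier results of these data known. Named genes are Trem2, the 9 receptors, up to 6 genes of each pathway list and 4 of each marker list by smallest p, and the 3 genes most like the receptor with the largest rise and fall. Stab2, Lyve1, Clec4f, Vsig4, Csf1r, Pecam1, Ager, Hp, Nr3c1, Ly6c2, Alb, Apob, Pck1, Cyp3a11 and Ass1 were added where a comparison or a cell type check needed them. Some genes that the rule names are not reported here.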

Additional observations from a re-analysis of the deposited data

How the results depend on the processing

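The calls of Marco, Stab1, Cd163, Cd68 and Lrp1 and their directions held with RLE size factors, total counts, DESeq2, limma-voom, log2(FPKM + 1), log2(FPKM + 0.1), no filter, a filter of 1 CPM in 3 libraries, an adjusted p under 0.01, and without each library in turn. Msr1 and Mrc1 were called under no setting. With the gene length trend removed, 1 receptor was called higher in place of 2, Lrp1 turned to -0.00679, Cd68 lost its call and Scarb1 was called lower. In that fit 25.3% of all tested genes were called, against 30.4% in the main fit. With the replicate block and the gene length trend removed together, 1 was called higher, Lrp1 stood at -0.00648 and 25.7% of all tested genes were called. With a biological coefficient of variation of 0.1 set for every gene, against an estimate of 0.0378, 1 receptor (Stab1) was called higher and 1 (Marco) lower, 1487 genes were called in all against 4182, and 3 other scavenger receptors were called higher and 0 lower. With 0.2, 0 receptors were called higher and 1 (Marco) lower, 371 genes were called in all, and 0 other scavenger receptors were called in either direction. At that value Stab1 had an edgeR adjusted p of 0.298. Other scavenger receptors called higher numbered 5 to 7 and called lower 2 to 3 without each library in turn, and all genes called numbered 3377 to 3909. Samples with the same number did not deviate together (r = -0.0053, -0.0034 and 0.028), and not every sample correlated best with its own number. With the replicate block 4230 genes were called, with 2 receptors higher and 3 lower, and Lrp1 had an adjusted p of 0.0477. Depth limits Olr1 only among the 9 receptors.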
